A study of Mus musculus with 8 samples.

Results

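The endocannabinoid genes described here are the 10 rows of the count table whose symbol is Cnr1, Cnr2, Faah, Mgll, Dagla, Daglb, Napepld, Abhd6, Abhd12 or Naaa, out of 54532 rows. They encode the cannabinoid receptors and the enzymes that make and break down their lipid ligands. All 10 had enough counts to be tested, among 18971 genes tested in all. RNA of L3-L5 dorsal root ganglia, where sensory neurons of the hind limb have their cell bodies, was sequenced from C57BL/6 mice. Both groups had joint damage induced by an intra-articular dose of monosodium iodoacetate (MIA), a blocker of glycolysis that is used to model osteoarthritis. The MIA_Acu group (4 libraries) was given manual acupuncture at the point ST36 on each of 7 days, and the MIA group (4 libraries) was untreated. No uninjured mice and no mice with sham needling were analysed here, so acupuncture and the handling that comes with it cannot be told apart.

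Endocannabinoids are lipid messengers that cells cut from their own membranes when stimulated, and the best known are anandamide and 2-arachidonoylglycerol (2-AG). Sensory neurons make the receptor CB1 and carry it to their endings, where its activation lowers excitability and transmitter release, and in rodents agonists of CB1 in the periphery reduce pain behaviour. The receptor CB2 is best known from cells of the immune system. How much ligand reaches these receptors depends on the balance between the enzymes of synthesis and those of breakdown, which makes the hydrolases drug targets in pain research.

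Sequences upstream of the transcription starts are shown for genes that stand at different levels in this ganglion. Whether base composition goes with level was not tested. RefSeq (GRCm38.p6) gave 13 windows of 250 bases before a start for 8 of the 10 genes, and none for Dagla or Abhd12. For a receptor of middling level (Cnr1), the receptor with the lowest level (Cnr2) and an abundant hydrolase (Mgll), the window with the highest CpG ratio is printed 5′ to 3′ on the strand of the gene, with each CpG dinucleotide in capitals. The Cnr1 window lies at chr4:33924394-33924643 on the plus strand, the Cnr2 window at chr4:135911430-135911679 on the plus strand and the Mgll window at chr6:88724454-88724703 on the plus strand.
Cnr1: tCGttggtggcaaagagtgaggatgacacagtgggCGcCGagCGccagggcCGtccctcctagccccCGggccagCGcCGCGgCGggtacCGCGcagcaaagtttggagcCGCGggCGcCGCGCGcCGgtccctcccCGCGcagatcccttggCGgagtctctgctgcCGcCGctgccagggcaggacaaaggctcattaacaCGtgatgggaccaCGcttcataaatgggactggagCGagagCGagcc
Cnr2: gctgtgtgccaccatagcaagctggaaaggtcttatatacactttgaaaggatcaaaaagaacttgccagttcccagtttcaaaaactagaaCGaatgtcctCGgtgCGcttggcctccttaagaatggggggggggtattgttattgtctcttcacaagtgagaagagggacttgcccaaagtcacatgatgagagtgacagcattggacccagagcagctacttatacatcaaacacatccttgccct
Mgll: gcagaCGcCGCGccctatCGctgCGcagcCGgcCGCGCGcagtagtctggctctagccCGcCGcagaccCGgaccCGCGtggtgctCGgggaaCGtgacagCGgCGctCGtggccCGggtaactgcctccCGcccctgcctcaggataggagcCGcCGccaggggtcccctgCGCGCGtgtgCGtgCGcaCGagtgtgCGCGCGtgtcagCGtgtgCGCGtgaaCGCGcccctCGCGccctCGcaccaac

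The Cnr1 window held 28 CpG and 68.8% G or C, with a ratio of observed to expected CpG of 0.95, at percentile 91.4 of the 32851 RefSeq mouse windows of the same length. The Mgll window held 40 CpG and 74.8% G or C, with a ratio of 1.15, at percentile 98.8. In contrast, the Cnr2 window held 3 CpG and 46.4% G or C, with a ratio of 0.22, at percentile 33, and its other window also held 3. Over all windows the median ratio was 0.373 and the median G or C share 52.4%. For the genes not printed, the ratios were 0.89 and 0.94 (Abhd6), 0.72 (Napepld), 0.59 (Daglb), 0.47 (Faah) and 0.46 (Naaa). These did not follow the order of the levels given below, where Naaa stands above Abhd6 and Napepld. The sequence after the start was found in GENCODE transcripts for the printed Cnr1 and Mgll windows, but for neither Cnr2 window. The GC box letters GGGCGG, searched on both strands, occurred once in the printed Mgll window and in neither of the other 2 printed windows, against 32.7% of all windows that hold them. Of the other Cnr1 windows, 1 held the GC box letters 5 times, with a CpG ratio of 0.93, and 1 had a ratio of 0.33 with 5 CpG, at percentile 46. No measurement here bears on what binds at these starts.

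Levels per length placed the 10 genes over a wide range. In CPM (counts scaled to a common library size) per kb of merged exon length, Abhd12 was highest, at 62.6 ± 7.05 in MIA_Acu and 64.2 ± 2.83 in MIA (SD, n = 4 each, as for all means below), at percentile 96.8 of the 18956 tested genes with a length. Mgll followed at 19.98 ± 1.48 in MIA_Acu and 18.1 ± 0.870 in MIA, at percentile 86.1. Naaa was at 11.7 ± 1.09 in MIA_Acu and 12.7 ± 0.439 in MIA, and Abhd6 at 10.7 ± 1.39 in MIA_Acu and 11.02 ± 0.956 in MIA. The gap of Naaa to Abhd6 was smaller than the spread of either in MIA_Acu, while those of Abhd12 to Mgll and of Mgll to Naaa exceeded their SDs.

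Cnr1 came next, at 5.49 ± 0.843 CPM per kb in MIA_Acu and 6.88 ± 0.733 in MIA, at percentile 63.3. Dagla was at 4.78 ± 0.432 in MIA_Acu and 4.89 ± 0.390 in MIA, Napepld at 4.19 ± 0.713 in MIA_Acu and 3.32 ± 0.669 in MIA, and Faah at 3.63 ± 0.770 in MIA_Acu and 3.22 ± 0.383 in MIA. In MIA_Acu the neighbours among these 4 genes were not separated beyond their spread, while in MIA Cnr1 exceeded Dagla, and Dagla Napepld, by more than their SDs. Daglb was lower, at 1.43 ± 0.0852 in MIA_Acu and 1.55 ± 0.0964 in MIA, at percentile 33.5. Cnr2 was lowest, at 0.272 ± 0.255 in MIA_Acu and 0.267 ± 0.0945 in MIA, at percentile 9.30. With the median transcript length in place of the merged one, Faah moved to rank 5 from rank 8, and Cnr1, Dagla, Napepld and Daglb moved by 1 or 2 ranks, so the order in the middle depends on the length used.

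**Figure D1:**
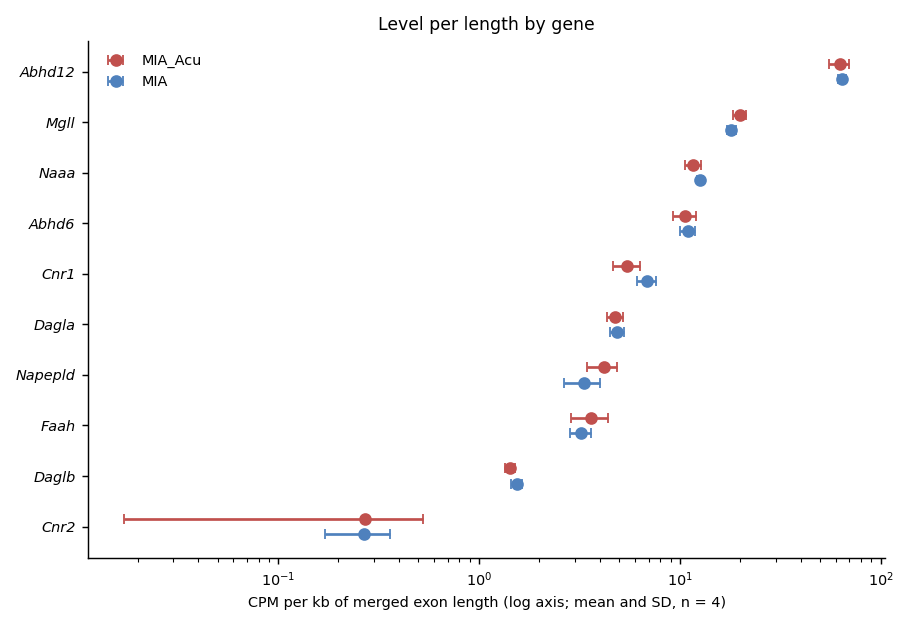
Level of each gene in CPM per kb of merged exon length (log axis), as mean and SD of 4 libraries, MIA_Acu in red above MIA in blue. Abhd12 and Mgll stand above the rest and Cnr2 at 0.272 and 0.267 CPM per kb below, with the 2 groups close together for each gene.

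None of the 10 genes passed the test between the groups in all 8 libraries. The test was edgeR's quasi-likelihood test with Benjamini-Hochberg adjustment over all genes tested and a threshold of 0.05. It called 0 of 18971 genes at all (0%, smallest adjusted p = 0.0881), 4137 had an unadjusted p under 0.05, and DESeq2 called 1753 genes but none of these 10. Of the 10, 4 had a higher fitted level in MIA_Acu and 6 a lower one, with a median log2 fold change of -0.04 beside 0.02 over all genes tested. In CPM, 0 of 10 genes had groups that did not overlap, against 10.8% of all genes. An unadjusted p under 0.05 with a lower level was reached by 1 of 10, Cnr1, against 10.6% of all genes, so that share is near the background.

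The column numbers limit how these values can be read. For 2 columns, MIA 4 and MIA_Acu 3, the number is in no sample title of their group. The titles that have no column are MIA 3 and MIA_Acu 4, so each number stands in a title of the other group. Whether the 2 columns were exchanged is not known. Each was counted with the group that its name gives, and the fold changes of the 10 genes are also given for the 6 libraries numbered 1, 2 and 5. In those 6 libraries the fitted level was higher in MIA_Acu for 6 of the 10 and lower for 4, with a median log2 fold change of 0.03. There 1 of 10 genes fell, Cnr1, against 4.14% of all genes that fell, and none rose, against 6.22% that rose. Library totals were 32892804 to 40627041 counts.

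Marker transcripts of several cell types differed between the groups as well. All 14 pan-neuronal markers were detected in each library, as ganglion tissue should show, and all 14 were lower in MIA_Acu on average. Their summed level was 12390 to 14510 CPM in MIA_Acu and 14520 to 18980 CPM in MIA, and 8 of them fell in the 6 libraries. All 12 markers of myelinating Schwann cells were higher, with a sum of 21300 to 40340 CPM in MIA_Acu and 7128 to 25580 CPM in MIA, and all 12 rose in the 6 libraries. The 9 endothelial markers were all higher, at 315.6 to 420.3 CPM in MIA_Acu and 219.9 to 271.1 CPM in MIA, and so were the 7 fibroblast markers, at 2167 to 5717 CPM in MIA_Acu and 601.9 to 1831 CPM in MIA. The 7 mural markers, also all higher, overlapped, at 399.4 to 561.2 CPM in MIA_Acu and 312.8 to 401 CPM in MIA. In the 6 libraries 4 endothelial, 1 fibroblast and 1 mural marker rose. Of all genes, 6.22% rose and 4.14% fell in those libraries, and 1 of 7 markers cannot be told apart from such a share. With MIA_Acu 2 or MIA_Acu 5 left out of the 6, edgeR called 0 genes, so none of these marker calls was kept. MIA_Acu 3 had the lowest Schwann sum of its group and MIA 4 the highest of its group. In bulk ganglia, fewer cells of a type and less RNA per cell cannot be told apart.

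Cnr1 (ENSMUSG00000044288, chromosome 4) encodes CB1, the G protein-coupled receptor that mediates most effects of cannabinoids on neurons. It was at 33.7, 30.7, 43.2 and 34.0 CPM in the MIA_Acu libraries numbered 1, 2, 3 and 5, against 43.6, 49.9, 38.5 and 45.3 CPM in the MIA libraries numbered 1, 2, 4 and 5. In all, 3 MIA_Acu libraries were below all MIA libraries, and the groups overlapped because MIA_Acu 3 was high and MIA 4 was low. The means were 35.4 ± 5.43 CPM in MIA_Acu and 44.3 ± 4.72 CPM in MIA. The log2 fold change was -0.32 (SE 0.12, 95% interval -0.59 to -0.06, adjusted p = 0.164), which did not pass.

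In the 6 matched libraries Cnr1 fell, with a log2 fold change of -0.50 (SE 0.09, 95% interval -0.70 to -0.31, adjusted p = 0.0188). The 6 values did not overlap, the 3 MIA_Acu libraries being lower. Of the 10 genes, Cnr1 alone was lower without overlap there, against 15.4% of all genes. The call was lost when MIA_Acu 2 was also left out (log2 fold change -0.46, adjusted p = 0.0821) or MIA_Acu 5 (-0.53, adjusted p = 0.0586), and it was kept without any one of the other 4. In both of these fits edgeR called 0 genes of any kind. MIA_Acu 2 and 5 had the most spinal cord marker transcripts (306.8 and 348.8 CPM) and the highest myelinating Schwann sums (38320 and 40340 CPM). Whether either bears on the loss of calls was not tested. With only MIA 4 left out of the 8 libraries, the log2 fold change was -0.39 (adjusted p = 0.0799).

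Cnr1 and the neuronal markers were both lower in MIA_Acu on average. Within MIA_Acu, the neuronal mean was highest in MIA_Acu 1 and Cnr1 in MIA_Acu 3. The pan-neuronal mean log2 CPM was 9.38, 9.15, 9.19 and 9.11 in MIA_Acu 1, 2, 3 and 5, against 9.58, 9.73, 9.34 and 9.56 in MIA 1, 2, 4 and 5. Relative to that mean, Cnr1 was at -4.30, -4.21, -3.76 and -4.02 log2 units in the MIA_Acu libraries and at -4.14, -4.09, -4.07 and -4.06 in the MIA libraries. The mean difference in log2 CPM was -0.329 before the subtraction and 0.02 after it. After it the groups overlapped, with SDs of 0.24 in MIA_Acu and 0.03 in MIA. In the 6 matched libraries, without the high value of MIA_Acu 3, the mean difference after the subtraction was -0.079, again with overlap. The subtraction raises the difference of every gene by the same amount, so any gene with a similar difference before it would also come near 0. The part of neuronal content in the difference of Cnr1 was not tested beyond these values.

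**Figure D2:**
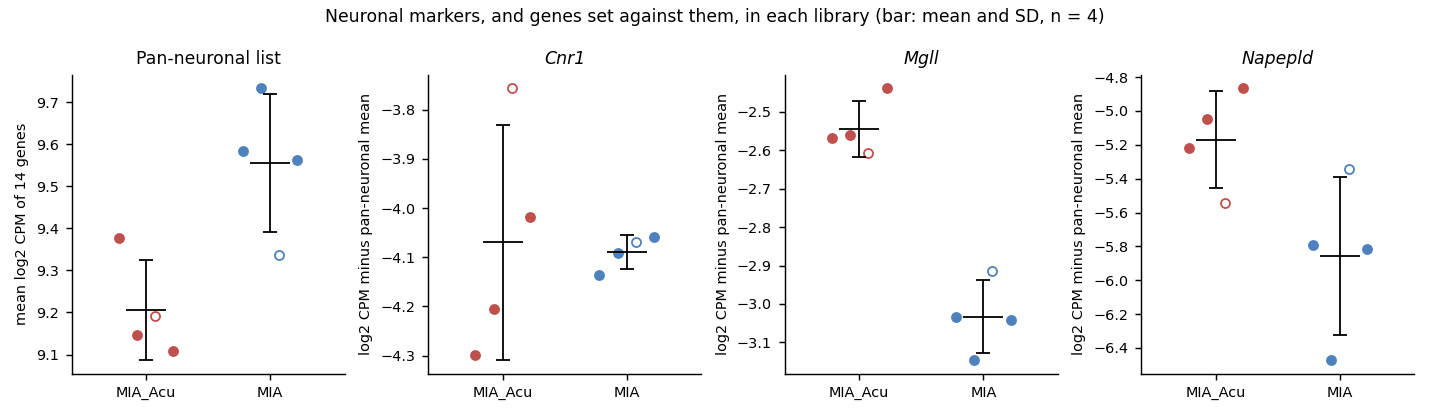
Left, mean log2 CPM of the 14 pan-neuronal markers in each library, and right, log2 CPM of Cnr1, Mgll and Napepld minus that mean, with group mean and SD (n = 4, MIA_Acu left of MIA, open symbols for the columns whose number matches no title). Cnr1 differs by 0.02 and overlaps, while the Mgll values of MIA_Acu lie above all those of MIA, as do those of 24.1% of all genes. The subtraction raises the difference of every gene by the same amount.

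Cnr2 (ENSMUSG00000062585, chromosome 4) encodes CB2, the cannabinoid receptor of immune cells. It had 14, 19, 95 and 30 counts in MIA_Acu 1, 2, 3 and 5, against 26, 39, 61 and 34 counts in MIA 1, 2, 4 and 5. In CPM these were 0.399, 0.531, 2.58 and 0.821 in MIA_Acu and 0.791, 1.02, 1.61 and 0.836 in MIA. MIA_Acu 3 was the highest of all 8 libraries and MIA_Acu 1 the lowest, so the groups overlapped fully. The log2 fold change was 0.03 (SE 0.56, 95% interval -1.23 to 1.28, adjusted p = 0.982), a wide interval. Without MIA_Acu 3 it was -0.87, and in the 6 matched libraries -0.60 (adjusted p = 0.358), and it was also negative without MIA 1 (-0.086) or MIA 5 (-0.073). With all 8 libraries kept it was -0.30 with voom and -0.271 with voom and sample weights. Its sign thus rested on single libraries and on the method.

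Markers of several tissues, blood and marrow among them, were high in the same library. The 6 B cell markers summed to 14.5, 8.38, 36.0 and 14.6 CPM in MIA_Acu 1, 2, 3 and 5, against 12.7, 12.7, 10.9 and 17.2 CPM in MIA 1, 2, 4 and 5. The 7 erythroid and neutrophil markers summed to 648, 326, 1588 and 609 CPM in MIA_Acu, against 667, 747, 706 and 1018 CPM in MIA. For both lists MIA_Acu 3 was the highest library. The other libraries did not follow Cnr2 in this way. MIA 4, the next highest for Cnr2, had the lowest B cell sum of MIA. MIA_Acu 1, the lowest for Cnr2, was not the lowest for either list. Bone and cartilage markers were at 571 CPM in MIA_Acu 3, against 27.0 to 70.7 CPM in the other MIA_Acu libraries and 26.3 to 55.8 CPM in MIA. Adipocyte markers were highest in MIA_Acu 3 (66.5 CPM) and next in MIA 4 (25.0 CPM), as Cnr2 was. MIA_Acu 1, the lowest for Cnr2, came after these at 23.3 CPM. Fibroblast (5717 CPM) and skeletal muscle markers (4537 CPM) also had their highest sum in MIA_Acu 3. The macrophage markers, 13 genes, were at 125, 192, 164 and 110 CPM in MIA_Acu and at 111, 77.6, 128 and 97.2 CPM in MIA, and did not have their highest value in MIA_Acu 3. The part of these cells in the Cnr2 level was not tested.

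**Figure D3:**
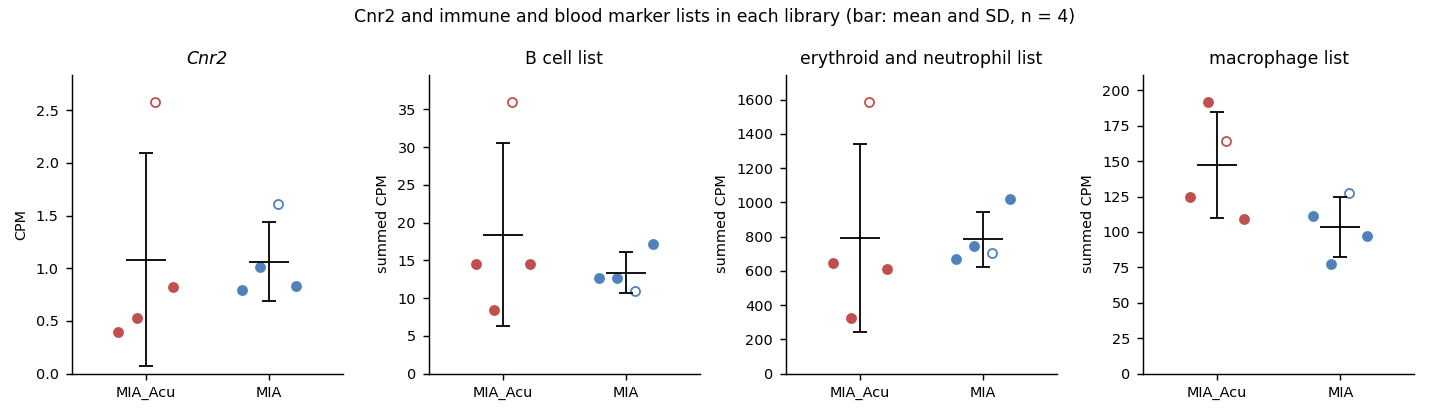
Cnr2 in CPM and the summed CPM of B cell, erythroid and neutrophil, and macrophage markers in each library, with group mean and SD (n = 4, MIA_Acu left of MIA, open symbols for the columns whose number matches no title). MIA_Acu 3 is highest for Cnr2 (2.58 CPM), for B cell markers (36.0 CPM) and for erythroid and neutrophil markers (1588 CPM). MIA 4 is next highest for Cnr2 (1.61 CPM) but has the lowest B cell sum of MIA (10.9 CPM).

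Among the enzymes of N-acylethanolamines, no gene passed the test. Napepld (ENSMUSG00000044968, chromosome 5) encodes the phospholipase D that releases anandamide and related lipids from membrane precursors. It was at 17.8, 17.1, 12.5 and 18.9 CPM in MIA_Acu 1, 2, 3 and 5, against 13.8, 9.54, 15.9 and 13.4 CPM in MIA 1, 2, 4 and 5. As for Cnr1, the libraries numbered 3 and 4 lay toward the other group, with Napepld low in MIA_Acu 3 and high in MIA 4. Its fitted log2 fold change was 0.33 (SE 0.17, 95% interval -0.06 to 0.72, adjusted p = 0.293), the highest of the 10. In the 6 matched libraries it was 0.55 (SE 0.15, 95% interval 0.20 to 0.89, adjusted p = 0.0559), just outside the threshold. Napepld was also the only one of the 10 that was higher without overlap in those 6 libraries, against 17.6% of all genes. Like Napepld, the myelinating Schwann sum was highest in MIA_Acu 5 (40340 CPM) and lowest in MIA 2 (7128 CPM). MIA_Acu 3 was the lowest of MIA_Acu and MIA 4 the highest of MIA for both. The part of Schwann cells in the Napepld level was not tested.

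Faah (ENSMUSG00000034171, chromosome 4) encodes the main hydrolase of anandamide. It was at 26.3, 35.0, 21.2 and 31.3 CPM in MIA_Acu 1, 2, 3 and 5, against 23.2, 22.2, 27.4 and 28.2 CPM in MIA 1, 2, 4 and 5. MIA_Acu 3 was the lowest library and MIA_Acu 2 the highest, so the MIA values lay inside the MIA_Acu range. The 6 markers of spinal cord oligodendrocytes and astrocytes summed to 23.2, 306.8, 53.9 and 348.8 CPM in the same MIA_Acu libraries, against 26.5, 28.8, 102.4 and 67.2 CPM in the MIA libraries. They were highest in MIA_Acu 2 and 5, the 2 libraries with the highest Faah. Mog and Opalin were at 0 in MIA 1, and Opalin also in MIA 2. The myelinating Schwann sum was also highest in MIA_Acu 2 and 5. It was 36650, 38320, 21300 and 40340 CPM in MIA_Acu 1, 2, 3 and 5. In MIA 1, 2, 4 and 5 it was 14840, 7128, 25580 and 16230 CPM. The part of either list in the Faah level was not tested. The log2 fold change of Faah was 0.17 (SE 0.15, 95% interval -0.17 to 0.51, adjusted p = 0.546) in 8 libraries and 0.33 (adjusted p = 0.164) in 6.

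Naaa (ENSMUSG00000029413, chromosome 5) encodes a lysosomal acid amidase that prefers palmitoylethanolamide. It was at 47.8, 44.5, 38.0 and 43.4 CPM in MIA_Acu 1, 2, 3 and 5, against 48.0, 48.6, 44.9 and 46.8 CPM in MIA 1, 2, 4 and 5. Of the MIA_Acu libraries, 3 were below all of MIA, and MIA_Acu 1 was inside the MIA range. A log2 fold change of -0.12 was fitted (SE 0.08, 95% interval -0.29 to 0.06, adjusted p = 0.403).

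None of the enzymes of 2-AG passed the test either. Dagla (ENSMUSG00000035735, chromosome 19) encodes the diacylglycerol lipase that makes most 2-AG in the brain. It was at 25.1, 30.9, 26.3 and 27.6 CPM in MIA_Acu 1, 2, 3 and 5, against 25.8, 26.8, 30.8 and 29.0 CPM in MIA 1, 2, 4 and 5. The ranges were almost the same. Its log2 fold change was -0.03 (SE 0.09, 95% interval -0.23 to 0.17, adjusted p = 0.866). Daglb (ENSMUSG00000039206, chromosome 5), the related lipase known for its part in macrophages and microglia, was at 13.5, 14.8, 12.8 and 13.6 CPM in MIA_Acu, against 15.3, 13.8, 14.3 and 15.9 CPM in MIA. MIA_Acu 2 lay among the MIA libraries and the other 3 lay below them, with a log2 fold change of -0.12 (SE 0.09, 95% interval -0.32 to 0.08, adjusted p = 0.468). Per length, the ratio of Daglb to Dagla was 0.300 ± 0.0153 in MIA_Acu and 0.319 ± 0.0327 in MIA, with overlapping groups.

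Mgll (ENSMUSG00000033174, chromosome 6) encodes monoacylglycerol lipase, the chief hydrolase of 2-AG in nervous tissue. It was at 111.9, 96.0, 96.0 and 101.9 CPM in MIA_Acu 1, 2, 3 and 5, against 93.8, 96.1, 85.8 and 91.7 CPM in MIA 1, 2, 4 and 5. MIA 2 was just above the lowest pair of MIA_Acu libraries, and the other 3 MIA libraries were below all of MIA_Acu. The log2 fold change was 0.14 (SE 0.07, 95% interval -0.01 to 0.30, adjusted p = 0.260) in 8 libraries and 0.13 (adjusted p = 0.298) in 6. With the groups of the 2 columns in doubt exchanged it was 0.067 (adjusted p = 0.697), its lowest value over the alternatives.

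Set against the pan-neuronal mean, Mgll was at -2.57, -2.56, -2.61 and -2.44 log2 units in MIA_Acu 1, 2, 3 and 5, against -3.03, -3.15, -2.91 and -3.04 in MIA 1, 2, 4 and 5. These groups did not overlap, and the mean difference was 0.49. Mgll was the only one of the 10 genes of which this held, against 24.1% of all genes that were higher without overlap on this scale. As the pan-neuronal mean was lower in MIA_Acu, subtracting it raised the difference of every gene by the same amount. For Mgll the mean difference in log2 CPM was 0.142 before the subtraction and 0.49 after it. Napepld differed by 0.69 and Faah by 0.50 on the same scale, both with overlapping groups. The other 7 differed by 0.02 to 0.32. In the 6 matched libraries Mgll differed by 0.55, and 6 of the 10 genes, Mgll, Napepld, Faah, Abhd6, Abhd12 and Naaa, were higher without overlap, against 53.4% of all genes.

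Abhd6 (ENSMUSG00000025277, chromosome 14), a membrane hydrolase that takes a smaller part of 2-AG, was at 28.1, 26.9, 20.6 and 25.2 CPM in MIA_Acu 1, 2, 3 and 5, against 23.4, 25.4, 26.8 and 28.7 CPM in MIA 1, 2, 4 and 5. MIA_Acu 3 was the lowest library and the other values interleaved. The log2 fold change was -0.05 (SE 0.11, 95% interval -0.29 to 0.19, adjusted p = 0.831). Abhd12 (ENSMUSG00000032046, chromosome 2), a lysophosphatidylserine lipase that also hydrolyses 2-AG and whose loss in humans causes a disease of peripheral nerve, eye and ear, was at 174.0, 186.0, 150.1 and 196.4 CPM in MIA_Acu. In MIA it was at 177.5, 174.7, 180.3 and 192.8 CPM. Again MIA_Acu 3 was the lowest, and the log2 fold change was -0.04 (SE 0.09, 95% interval -0.23 to 0.16, adjusted p = 0.838). In the 6 matched libraries the log2 fold changes of Dagla (0.029), Abhd6 (0.042) and Abhd12 (0.023) had the other sign, those of Daglb (-0.11) and Naaa (-0.09) the same, and none passed.

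**Figure D4:**
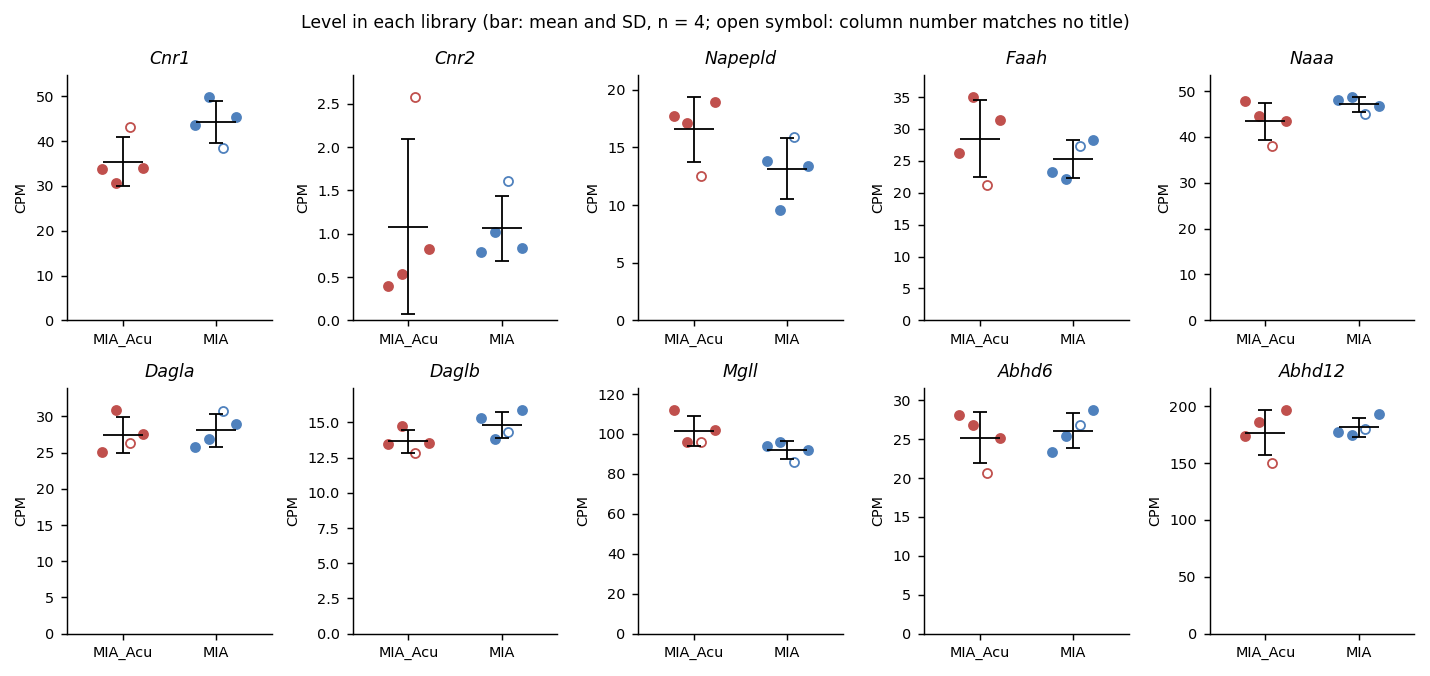
CPM of each gene in each library, with group mean and SD (n = 4, MIA_Acu left of MIA, open symbols for the columns whose number matches no title). The groups overlap for all 10 genes, and for Cnr1 and Napepld the open symbols lie toward the other group.

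**Figure D5:**
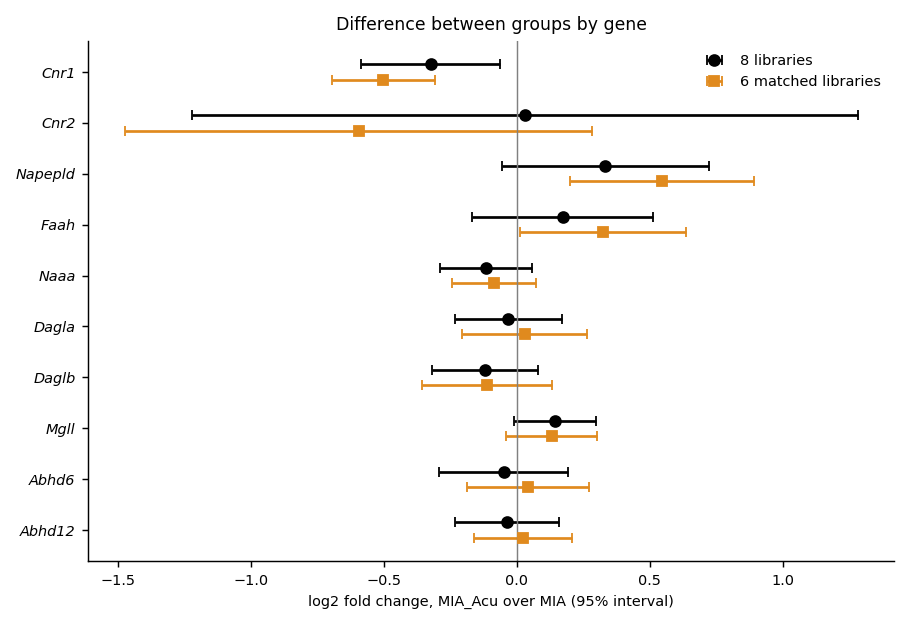
Log2 fold change of MIA_Acu over MIA with its unadjusted 95% interval for each gene, from 8 libraries (black circles) and from the 6 matched libraries (orange squares). The interval of Cnr1 lies below 0 in both fits and that of Cnr2 is the widest, from -1.23 to 1.28 in 8 libraries.

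The make-up of the 2-AG hydrolases overlapped between the groups. Per length, Abhd12 made up 67.1 ± 2.28% of the summed level of Abhd12, Mgll and Abhd6 in MIA_Acu and 68.8 ± 0.832% in MIA. Mgll made up 21.5 ± 1.97% in MIA_Acu and 19.4 ± 1.23% in MIA, and Abhd6 11.4 ± 0.866% in MIA_Acu and 11.8 ± 0.701% in MIA. All 3 shares overlapped between the groups. These are shares of transcript and not of enzyme activity. Per length, the ratio of Mgll to Cnr1 was 4.22, 3.97, 2.82 and 3.80 in MIA_Acu 1, 2, 3 and 5, against 2.73, 2.44, 2.83 and 2.57 in MIA 1, 2, 4 and 5. Of the MIA_Acu libraries, 3 were above all of MIA, and MIA_Acu 3 was just below MIA 4. The ratio of Napepld to Cnr1 was 0.786 ± 0.211 in MIA_Acu and 0.495 ± 0.148 in MIA, again with MIA_Acu 3, at 0.470, inside the MIA range.

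Genes around the pathway were placed in 5 lists of 43 genes, of which 41 were tested. In 8 libraries 0 of 41 passed, 20 were higher and 21 lower, and the median log2 fold change was 0.00. An unadjusted p under 0.05 was reached by 1 of 41 with a higher level, a smaller share than the 11.2% of all genes. With a lower level it was reached by 8 of 41, a larger share than the 10.6% of all genes. Of these 8, 5 were among the 13 carriers and partners of CB1. The lists were not tested as sets. In the 6 matched libraries 1 of 41 rose, a smaller share than the 6.22% of all genes. There 4 of 41 fell, a larger share than the 4.14% of all genes, and 36 did not pass, with a median of -0.14. None of these calls was kept when MIA_Acu 2 or MIA_Acu 5 was left out of the 6, where edgeR called no gene. Among 13 carriers and partners of CB1, the 2 that fell (4.14% of all genes did) were Sgip1, an endocytic adaptor that binds CB1, and Gprasp1, a sorting protein that directs CB1 and other receptors to lysosomes. Sgip1 was at 44.6, 41.7, 45.3 and 45.9 CPM in MIA_Acu 1, 2, 3 and 5, against 53.1, 57.1, 50.4 and 52.2 CPM in MIA 1, 2, 4 and 5, with no overlap. Its log2 fold change was -0.26 in 8 libraries (adjusted p = 0.0961) and -0.30 in 6 (adjusted p = 0.0387). Gprasp1 averaged 269.3 ± 10.2 CPM in MIA_Acu and 326.4 ± 28.6 CPM in MIA, with log2 fold changes of -0.28 in 8 (adjusted p = 0.114) and -0.32 in 6 (adjusted p = 0.0474).

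In the list of other receptors and channels, 6 of 7 genes were tested and 1 fell in the 6 libraries, where 4.14% of all genes fell. This was Trpv1, the capsaicin channel of nociceptors that anandamide also opens. It was at 96.3, 93.2, 150.8 and 83.0 CPM in MIA_Acu 1, 2, 3 and 5, against 146.1, 138.8, 97.0 and 115.0 CPM in MIA 1, 2, 4 and 5. MIA_Acu 3 was the highest library and MIA 4 the lowest of MIA. The log2 fold change was -0.23 in 8 libraries (adjusted p = 0.519) and -0.56 in 6 (adjusted p = 0.0201). All 9 nociceptor markers, Trpv1 among them, were lower on average, with a sum of 2293 to 3165 CPM in MIA_Acu and 2738 to 3688 CPM in MIA. Of the list, Ppard, a nuclear receptor for fatty acids, had the smallest p in 8 libraries (log2 fold change 0.30, adjusted p = 0.231, and 0.43 in 6, adjusted p = 0.0649). Gpr119, a receptor for oleoylethanolamide, came next with -0.34 in 8 (adjusted p = 0.477) and -0.22 in 6 (adjusted p = 0.688).

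Of 9 tested genes for other routes to N-acylethanolamines, 1 rose in the 6 libraries, where 6.22% of all genes rose. This was Plaat3, a phospholipase and acyltransferase of adipose and other tissue, at 249.8, 247.2, 169.1 and 271.4 CPM in MIA_Acu 1, 2, 3 and 5. In MIA 1, 2, 4 and 5 it was at 133.0, 84.3, 221.9 and 142.0 CPM. The groups overlapped through MIA_Acu 3 and MIA 4, in the same way as the Schwann cell sum. Its log2 fold change was 0.69 in 8 libraries (adjusted p = 0.172) and 1.09 in 6 (adjusted p = 0.0185). Gdpd1, a lysophospholipase D, had a log2 fold change of -0.29 (adjusted p = 0.163) and did not pass in either set.

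Of 9 phospholipase C genes, which supply the diacylglycerol for 2-AG, 1 fell in the 6 libraries, beside the 4.14% of all genes. This was Plcd4, at 33.4, 28.6, 39.3 and 32.9 CPM in MIA_Acu 1, 2, 3 and 5, against 45.2, 41.4, 38.3 and 44.6 CPM in MIA 1, 2, 4 and 5. Its groups overlapped only through MIA_Acu 3 and MIA 4, with log2 fold changes of -0.34 in 8 libraries (adjusted p = 0.125) and -0.48 in 6 (adjusted p = 0.0201). Plcb3, abundant in nociceptors, did not pass (-0.33 in 8 libraries, adjusted p = 0.205). None of the 4 oxygenation genes passed in either set. Ptgs2, cyclooxygenase-2, had the smallest p of the 4 in 8 libraries (log2 fold change 0.85, adjusted p = 0.333), and 0.14 in 6 (adjusted p = 0.849). It was at 2.20 CPM in MIA_Acu 3, against 0.447 to 0.711 CPM in the other MIA_Acu libraries and 0.469 to 0.608 CPM in MIA. Alox15, a lipoxygenase, stood at -0.94 on the log2 scale in 8 (adjusted p = 0.343) and at -1.24 in 6 (adjusted p = 0.272), with 0.378 ± 0.224 CPM in MIA_Acu and 0.725 ± 0.295 CPM in MIA.

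For each gene the other tested genes whose log2 CPM followed it most closely over the 8 libraries were found by Pearson r among 13232 genes. These libraries differ in the levels of neuronal and myelin markers, and the part of that in the r values was not tested. The r values are a description of 8 points, and the closest of 13232 genes can reach a high r by selection alone. Cnr1 was followed most closely by Kalrn (0.97) and Tubgcp4 (0.97), and Cnr2 by Flrt2 (0.96) and Abcc1 (0.95). Napepld was nearest to Rnf167 (0.99) and Fgf2 (0.99), Faah to Wnt6 (0.96) and Plekhj1 (0.96), and Naaa to Chchd6 (0.98) and Ube2d2a (0.97). For Dagla they were Otop1 (0.94) and Sema6a (0.94), and for Daglb Wiz (0.97) and Nckap5l (0.93). For the hydrolases of 2-AG they were Ppp1cc (0.98) and Adipor1 (0.96) with Mgll, Elmo2 (0.98) and Gne (0.97) with Abhd6, and Mapre3 (0.96) and Cyp46a1 (0.94) with Abhd12. No gene was among the closest for more than 1 of the 10.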

How the data were processed

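Poly(A) RNA of L3-L5 ganglia was extracted with TRIzol (RIN of at least 8) and made into NEBNext Ultra libraries, per the labels' protocols. The authors deposited raw counts per Ensembl gene with their symbols. FastQC, Trimmomatic and the build GRCm39 (mm39) are named in the submitters' processing notes. Aligner, counter, strand setting and annotation were not given in the sources used here. Reads of overlapping or antisense genes may be shared.

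Counts were tested with edgeR 4.0.16 in R 4.3.3 (filterByExpr by group with minimum count 10 and total 15, TMM, quasi-likelihood test, group as the only term, Benjamini-Hochberg adjustment, threshold 0.05), checked on simulated counts. Library sizes for CPM were scaled by TMM, and a prior count of 2 was added for log2 CPM. Intervals and SEs derive from the F statistic. Lengths came from GENCODE transcripts of GRCm38. Whether each library is a separate animal is not stated, so the p-values cover only the spread among these libraries. The design text counts 3 groups with 3 mice each but names 2, and 2 groups of 4 libraries were analysed here. No pair of libraries within a group agreed within sampling noise (chi-square per degree of freedom 19.7 or more).

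The genes and lists were chosen with earlier results of these data known. By rule, all 10 genes were named, with the pathway genes past the threshold or else the 2 of smallest p in each list, and the 2 most similar genes each, among those with a mean log2 CPM of at least 1. Plaat1, Plaat3 and Plaat5 stand under older symbols in the table. Alternatives were DESeq2 1.42.0, limma 3.58.1 voom with and without sample weights, other scaling and filters, each library left out, the 6 matched libraries alone or with a block for replicate number, and the unmatched columns exchanged. Added after seeing the data were each of the 6 left out in turn and the levels relative to neuronal markers in the 6.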

Additional observations from a re-analysis of the deposited data

Results flagged for a closer look

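A set of 4 values was looked at again where its highest or lowest value stood apart from the other 3 by a gap, as a share of the range, above Dixon's 95% limit. Of 74 sets, 4 did so, and chance alone gives about 1 in 20. Relative to the pan-neuronal mean, Cnr2 in MIA had its highest value in MIA 4, at -8.60 log2 units with the other 3 at -9.83 to -9.63 (gap 0.842 of the range). Bone and cartilage markers stood apart in both groups, in MIA_Acu 3 (571 CPM with the others at 27.0 to 70.7, gap 0.92) and in MIA 5 (55.8 CPM with the others at 26.3 to 28.7, gap 0.918). Adipocyte markers were at 66.5 CPM in MIA_Acu 3, with the other MIA_Acu libraries at 16.2 to 23.3 CPM (gap 0.86). Cnr2 had a log2 fold change of 0.298 without MIA 4 and of -0.87 without MIA_Acu 3.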

How the results depend on the processing

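The number of genes called in all depended most on the processing. From 0 in 8 libraries it moved to 6 with no filter on low counts, to 1753 with DESeq2, to 2249 with voom and sample weights, to 1963 in the 6 matched libraries, to 1486 there with the replicate number as a block and to 207 with the unmatched columns exchanged. The deviations of same-numbered libraries (1, 2 and 5) correlated at 0.067, 0.272 and 0.152. Differently numbered libraries were not compared in this way, so these values cannot decide whether the numbers mark pairs. The main fit had no block. Leaving 1 library out of the 8 gave 0 to 1340 (1340 without MIA 4, 0 without any other), and leaving 1 out of the 6 gave 0 to 2742. Of the 10 endocannabinoid genes, 0 were called in 8 libraries and 1, Cnr1, under voom with sample weights (log2 fold change -0.39, adjusted p = 0.0367), in the 6 libraries and there with the block (-0.50, adjusted p = 0.0339), 0 with any 1 library left out of the 8, and 0 to 1 with 1 left out of the 6. With the columns exchanged, Cnr1 was at -0.41 (adjusted p = 0.0514). Over the alternatives Cnr1 stayed between -0.55 and -0.26, Napepld between 0.21 and 0.64 and Mgll between 0.07 and 0.18.

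The genes near 0 turned sign. The log2 fold change of Cnr2 was -0.30 with voom, -0.271 with voom and weights, -0.596 in the 6 libraries, -0.635 with the block and -0.632 with the exchange, between -0.866 and 0.319 with 1 library left out of the 8, and between -0.926 and -0.382 with 1 left out of the 6. That of Dagla was 0.022 with voom and weights, 0.029 in the 6 libraries, 0.026 with the block and 0.085 with the exchange, between -0.093 and 0.015 with 1 left out of the 8, and between -0.052 and 0.104 with 1 left out of the 6. In the 6 libraries, with the block and with the exchange, that of Abhd6 was 0.042, 0.046 and 0.124, and that of Abhd12 0.023, 0.023 and 0.084. With 1 left out of the 8, Abhd6 lay between -0.102 and 0.029 and Abhd12 between -0.093 and 0.026. With 1 left out of the 6, Abhd6 lay between -0.027 and 0.132 and Abhd12 between -0.022 and 0.074. None of these passed the threshold, and the cause was not tested. The stricter filter removed Cnr2, which has no value there. Of 229 values, 179 kept their direction and side of the threshold. Cnr2, at 318 counts over 8 libraries, is the gene whose depth limits it most.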
